A study of Mus musculus with 4 samples.

Results

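The genes described here encode the proteins that choose splice sites and the kinases that act on them: 10 SR proteins, 2 Tra2 proteins, the 4 CLK kinases, the kinase PRPF4B, 8 SR-related proteins, 8 hnRNPs, 5 core spliceosome proteins and the RNA helicase DDX5. They were taken by gene symbol from a fixed list of 39 names, and all 39 were found among the 32285 genes of the count matrices. They were measured by CITE-seq, which counts messenger RNA and antibody-linked tags in the same single cells, in LSK cells (lineage-negative, Sca1-positive, c-Kit-positive blood stem and progenitor cells) of mouse fetal liver at E17.5. The WT library came from Bclaf1f/f embryos and the KO library from Vav-Cre:Bclaf1f/f embryos, so floxed Bclaf1 was common to both and only KO carried Vav-Cre, whose promoter drives the recombinase across the blood lineages. Each genotype was 1 pool of 10 embryos, enriched for c-Kit and sorted (20000 cells, of which 10000 were loaded), and gave 1 library. The design does not separate the presence of Cre from the loss of BCLAF1, an arginine- and serine-rich nuclear protein.

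SR proteins bind exonic enhancers through RNA recognition motifs and recruit the spliceosome through a domain rich in arginine and serine, whereas hnRNPs often coat pre-mRNA and favour exon skipping, so that the balance of both classes shapes exon choice. CLK kinases phosphorylate the serines of SR proteins in the nucleus and release them from nuclear speckles, and PRPF4B, a related kinase, acts on the spliceosome itself. Many SR, Tra2 and hnRNP genes carry a conserved poison exon or a retained intron through which the proteins limit their own messenger RNA, and Clk1 and Clk4 transcripts with retained introns wait in the nucleus until heat or osmotic stress leads to their splicing. The 3′ end tags counted here do not tell such isoforms apart: a value is the sum of productive, unproductive and intron-retaining transcripts with the same end.

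The 4 members that stood at least 25% higher in the KO library were Srsf5, Tra2a, Tra2b and Clk1. The promoter windows of Srsf5 and Tra2b are shown because they lie at the annotated gene start; they come from the RefSeq table for GRCm38.p6, run from 250 bases before to 50 bases after the start on which the table sets them, and are read on the gene's own strand. Srsf5 lies on the plus strand at chr12:80945249-80945548 and Tra2b on the minus strand at chr16:22265956-22266255. Capitals mark the searched motifs, on either strand.
Srsf5: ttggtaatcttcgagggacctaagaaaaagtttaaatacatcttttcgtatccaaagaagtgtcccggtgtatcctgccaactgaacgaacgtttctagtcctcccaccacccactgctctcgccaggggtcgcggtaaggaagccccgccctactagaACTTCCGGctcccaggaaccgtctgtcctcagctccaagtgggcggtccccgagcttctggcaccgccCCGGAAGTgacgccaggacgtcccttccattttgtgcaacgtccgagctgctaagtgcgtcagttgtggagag
Tra2b: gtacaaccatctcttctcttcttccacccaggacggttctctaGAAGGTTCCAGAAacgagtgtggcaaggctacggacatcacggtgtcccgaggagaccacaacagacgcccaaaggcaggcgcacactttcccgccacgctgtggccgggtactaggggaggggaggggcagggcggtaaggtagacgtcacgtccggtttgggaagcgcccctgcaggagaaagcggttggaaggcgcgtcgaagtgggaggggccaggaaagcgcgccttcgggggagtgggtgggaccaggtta
In Srsf5 the capitals are a pair of ETS motifs (CCGGAAGT, once on each strand), a motif found in 4.0% of all 27025 windows of the table. In Tra2b they are a heat shock element of 3 GAA or TTC units, found in 0.529%. A CRE (TGACGTCA), an AP-1 motif (TGANTCA), the palindromic NRF1 motif and a CCAAT box (CCAAT), found in 1.88, 7.93, 0.977 and 37.9% of all windows, were searched as well and are in neither. These are letter matches, and no binding was measured. The table held 37 of the 39 genes, all but Clk1 and U2af2. Its start lay within 50 bases of the annotated gene start for 16 of the 37 and 61 to 12660 bases inside the annotated gene for the other 21, Tra2a (196 bases) among them, so no motif counts across members are given.

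Summed over 5345 cells in WT and 2676 in KO, the libraries gave 141419013 and 104358292 UMIs (unique molecular identifiers, 1 per counted molecule) from genes. KO cells were deeper, with a median of 34187.5 UMIs against 22734 in WT, and 5 cell barcodes occurred in both libraries. Levels are given as UMIs per 1000000 gene UMIs (CPM), with WT first wherever a pair is given, ratios as log2 of KO over WT, and brackets hold exact 95% intervals that cover counting error only. With 1 library per genotype there is no replicate check and no test, so every difference is one between these libraries. Of the LSK markers, Kit was at 200 CPM in WT against 220 in KO and Ly6a (Sca1) at 12.8 and 9.60 CPM, and all 7 were above 1 CPM. Defining markers of mature B cells summed to 0.488 and 0.335 CPM and those of T or NK cells to 0.750 and 0.680 CPM, with Ncr1 at 0 in both, whereas erythroid markers summed to 804 and 1327 CPM. Hepatoblast or hepatocyte markers summed to 68.4 and 63.4 CPM, with Dlk1 highest. Mature neutrophil markers summed to 54.4 and 43.2 CPM, with S100a9 highest. Macrophage or monocyte markers summed to 16.4 and 15.2 CPM, endothelial ones to 7.86 and 6.87 and stellate or mesenchymal ones to 0.148 and 0.134. Bclaf1 itself was at 218 CPM in WT against 75.8 in KO.

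Most of the 39 genes were modestly higher in the KO library. Among the 38 with at least 20 CPM on average (Clk2 fell short), 34 had a ratio above 0, against 64.5% of the 5291 genes that met the same minimum, and their median was 0.19 against 0.06. The interval lay above 0 for 32 of them (53.1% of all genes) and below 0 for 4 (Srsf7, Srsf9, Son and U2af1; 25.5% of all genes). Intervals narrow as a gene's level goes up, and these shares are not matched for level. At least 25% higher in KO (a log2 ratio of 0.32) were 4 of 38, where 5.54% of all genes were. None was at least 20% lower, where 1.72% of all genes were. The plot of ratios by role shows that the 4 genes past the fold belong to 3 roles and that the hnRNPs lie close together.

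**Figure D1:**
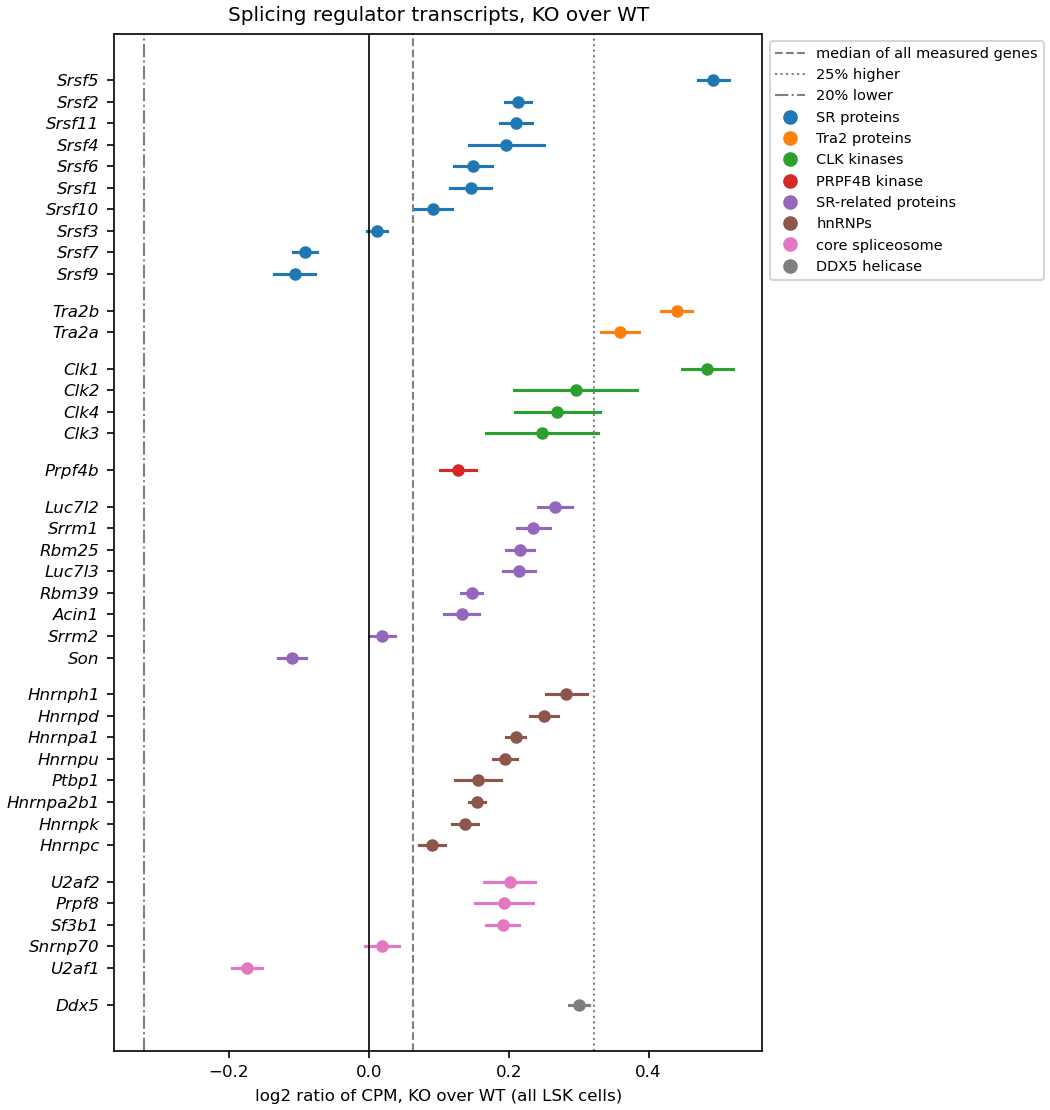
Log2 ratio of CPM, KO over WT, summed over all LSK cells, for each of the 39 genes, grouped by role in colour. Points are ratios, bars are exact 95% intervals that cover counting error only (1 library per genotype); the dashed line is the median of all 5291 measured genes (0.06) and the outer lines mark 25% higher and 20% lower. Srsf5 and Clk1 stand farthest to the right at 0.49 and 0.48, and U2af1 farthest to the left at -0.17.

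Among the 10 SR proteins, Srsf5, whose protein shuttles between nucleus and cytoplasm, stood apart. It was at 226 CPM in WT against 318 in KO, a ratio of 0.49 (0.47 to 0.51), which placed it at the 98.0th percentile of all measured genes. The next highest were Srsf2 (SC35, a component of nuclear speckles), with 346 CPM in WT against 401 in KO and a ratio of 0.21, and Srsf11, with 226 and 262 CPM and a ratio of 0.21. Srsf1, the founding member of the family, had 146 CPM in WT against 161 in KO, a ratio of 0.15, as had Srsf6 with 168 and 187 CPM. Srsf4 had a ratio of 0.20 and Srsf10, which in its dephosphorylated form represses splicing after heat shock, 0.09. Srsf3, which couples splicing to mRNA export, was at 703 CPM in WT against 709 in KO, and its interval of -0.00 to 0.03 included 0. Srsf7, a close relative of Srsf3, went the other way, with 444 CPM in WT against 416 in KO, a ratio of -0.09 (-0.11 to -0.07). The lowest was Srsf9, with 159 CPM in WT against 148 in KO, a ratio of -0.11 (-0.14 to -0.08). The annotated Srsf2 and Srsf9 genes overlap Mfsd11 and Gatc, and whether the counting used strand is not given in the sources used here, so part of their tags may belong to those neighbours. Over the class, 8 of 10 ratios were above 0, where 64.5% of all measured genes were. The class median was 0.15, and the summed level was 2628 CPM in WT against 2829 in KO.

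Both Tra2 genes, which encode SR-like activators of exons rich in GAA repeats, were past the fold. Tra2b was at 240 CPM in WT against 326 in KO, a ratio of 0.44 (0.42 to 0.46), and Tra2a at 161 and 207 CPM, a ratio of 0.36 (0.33 to 0.39). How far their ratios ranged depended on the gates: over the 5 lineage gates and the marker-low cells described further on, Tra2b ranged from 0.42 to 0.52 and Tra2a from 0.31 to 0.44. Over the same 6 sets of cells Srsf5 ranged more widely, from 0.28 to 0.73, and Clk1 from 0.33 to 0.64. Over the marker-low cells of 4 surface gates it was Tra2b that ranged most widely of these 4 genes, from 0.28 to 0.52, with Clk1 from 0.43 to 0.64, Srsf5 from 0.43 to 0.61 and Tra2a from 0.30 to 0.45.

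All 4 CLK kinases were higher in the KO library, where 64.5% of all measured genes were. Clk1 was at 84.9 CPM in WT against 119 in KO, a ratio of 0.48 (0.45 to 0.52), the 97.9th percentile of all measured genes. Clk4, its closest relative, had 33.1 CPM in WT against 39.9 in KO and a ratio of 0.27 (0.21 to 0.33). Clk2 had 15.5 and 19.1 CPM and a ratio of 0.30 (0.21 to 0.38), and Clk3, with the lowest ratio of the class, 18.9 and 22.5 CPM and 0.25 (0.17 to 0.33). The wider intervals follow from 1990 to 4675 UMIs per library behind Clk2, Clk3 and Clk4, against 12012 and 12399 behind Clk1. The class median was 0.28, and the summed level was 152 CPM in WT against 200 in KO. Prpf4b, the kinase that acts on the spliceosome, had 194 and 212 CPM and a smaller ratio of 0.13 (0.10 to 0.15).

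In the 8 SR-related genes 7 ratios were above 0 (64.5% of all measured genes) and none passed the fold, with a median of 0.18. Luc7l2, a partner of the U1 snRNP that takes part in the choice of the 5′ splice site, was highest with 209 CPM in WT against 251 in KO, a ratio of 0.27 (0.24 to 0.29). The coactivator Srrm1 followed with 0.24, the U1-associated Rbm25 with 0.22 and the paralogue Luc7l3 with 0.21. Rbm39, the U2AF-like coactivator that aryl sulfonamide drugs degrade, had 577 and 638 CPM and a ratio of 0.15, and Acin1, a partner of the exon junction complex, 0.13. The scaffolds of nuclear speckles were not among the higher genes. Srrm2 had 391 CPM in WT against 396 in KO, a ratio of 0.02 (0.00 to 0.04) that turned to -0.0444 with median-of-ratios scaling, and Son, with the lowest ratio, 357 and 331 CPM and -0.11 (-0.13 to -0.09). Srrm2 overlaps Elob and Son overlaps Donson in the annotation, and 14 of the 39 genes overlap some other annotated gene.

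The 8 hnRNPs were all higher in the KO library (64.5% of all measured genes were), within a narrow range and with none past the fold. Hnrnph1, which binds G-rich sequence, was highest with 141 CPM in WT against 172 in KO, a ratio of 0.28 (0.25 to 0.31). Hnrnpd (AUF1), which also controls the decay of AU-rich messages, had 316 and 376 CPM and a ratio of 0.25 (0.23 to 0.27). Hnrnpa1, the classical antagonist of SRSF1, had 636 and 735 CPM and 0.21, and Hnrnpu, a nuclear scaffold protein, 436 and 498 CPM and 0.19. Ptbp1, the polypyrimidine tract binding protein, had 0.16, Hnrnpa2b1 0.15 and Hnrnpk 0.14. Hnrnpc, which binds U-rich sequence and keeps cryptic exons silent, was lowest with 355 and 378 CPM, a ratio of 0.09 (0.07 to 0.11). The class median was 0.18, the summed level 3358 CPM in WT against 3796 in KO.

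The core spliceosome genes split. U2af2, the large subunit of the factor that binds the polypyrimidine tract, was highest with 91.9 CPM in WT against 106 in KO, a ratio of 0.20 (0.16 to 0.24). Prpf8, at the catalytic centre of the spliceosome, and Sf3b1, which holds the branch point, both had 0.19. U2af1, the small subunit that reads the AG of the 3′ splice site, had the lowest ratio of all 39 genes, with 298 CPM in WT against 264 in KO and -0.17 (-0.20 to -0.15), the 7.73th percentile of all measured genes. Over all LSK cells the paired subunits of U2AF thus differed in direction, which did not hold in every set of cells described further on. Snrnp70, the U1 snRNP protein that CLK1 and SR proteins contact, had 227 and 230 CPM, and its interval included 0. Ddx5, an RNA helicase that also acts as a transcription coactivator, had 556 and 684 CPM and a ratio of 0.30 (0.29 to 0.31), just short of the fold.

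No single cell carried these levels: the most that 1 cell gave of any member's UMIs was 0.273% in WT and 0.402% in KO, both for Clk2. Free RNA in empty droplets with 100 to 300 UMIs differed between libraries in the same direction for the 4 genes past the fold, with ratios of 0.37 for Srsf5, 0.39 for Tra2b, 0.36 for Clk1 and 0.32 for Tra2a. With 5% of each sum taken off as the empty-droplet profile, 4 members were again at least 25% higher, where 5.74% of all genes were. Each library was corrected with its own profile, and the profiles differed in the same direction, so this subtraction could hardly change the count. The part of free RNA in the cell values was not tested.

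The 3 classes were compared as ratios of summed UMIs, which do not depend on the library total. Because the yield of tags differs between genes, only the shift of such a ratio between libraries is read. SR protein UMIs per hnRNP UMI were 0.783 in WT and 0.745 in KO, a shift of -0.07 (-0.08 to -0.06). CLK UMIs per SR protein UMI were 0.0580 and 0.0708, a shift of 0.29 (0.26 to 0.32), and CLK UMIs per hnRNP UMI 0.0454 and 0.0527, a shift of 0.22 (0.19 to 0.24). Summed over all LSK cells, the KO library thus held fewer SR transcripts and more CLK transcripts for each hnRNP transcript. In the SR sum, Srsf3 gave 99444 of the 371695 SR protein UMIs in WT, and its ratio of 0.01 over all cells was -0.16 among cells with 15000 to 40000 UMIs. In the CLK sum, Clk1 weighed most, with 12012 UMIs in WT against 2197 for Clk2, 2674 for Clk3 and 4675 for Clk4. Clk1 also had the highest ratio of the 4, so the CLK shifts are not an even measure of the class. Across the marker-low cells of the 4 surface gates described next, the SR-to-hnRNP shift ran from -0.11 to -0.04 and the CLK-to-SR shift from 0.32 to 0.43. Over the lineage gates the CLK-to-SR shift ran from 0.21 in megakaryocyte to 0.47 in granulocyte-monocyte marker-high cells. Over all CD150+CD48- cells, of which more were erythroid marker-high in KO, it was -0.00 (-0.10 to 0.09), and the CLK-to-hnRNP shift was -0.16 (-0.25 to -0.06), the opposite of its direction over all LSK cells. In the upper CD201 (EPCR) antibody range of that gate (244 WT and 121 KO cells) both were below 0, with -0.18 (-0.32 to -0.04) for CLK to SR and -0.265 (-0.40 to -0.13) for CLK to hnRNP. Erythroid markers summed to 641 CPM in WT against 2753 in KO in those cells, and their part in the shifts was not tested.

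**Figure D2:**
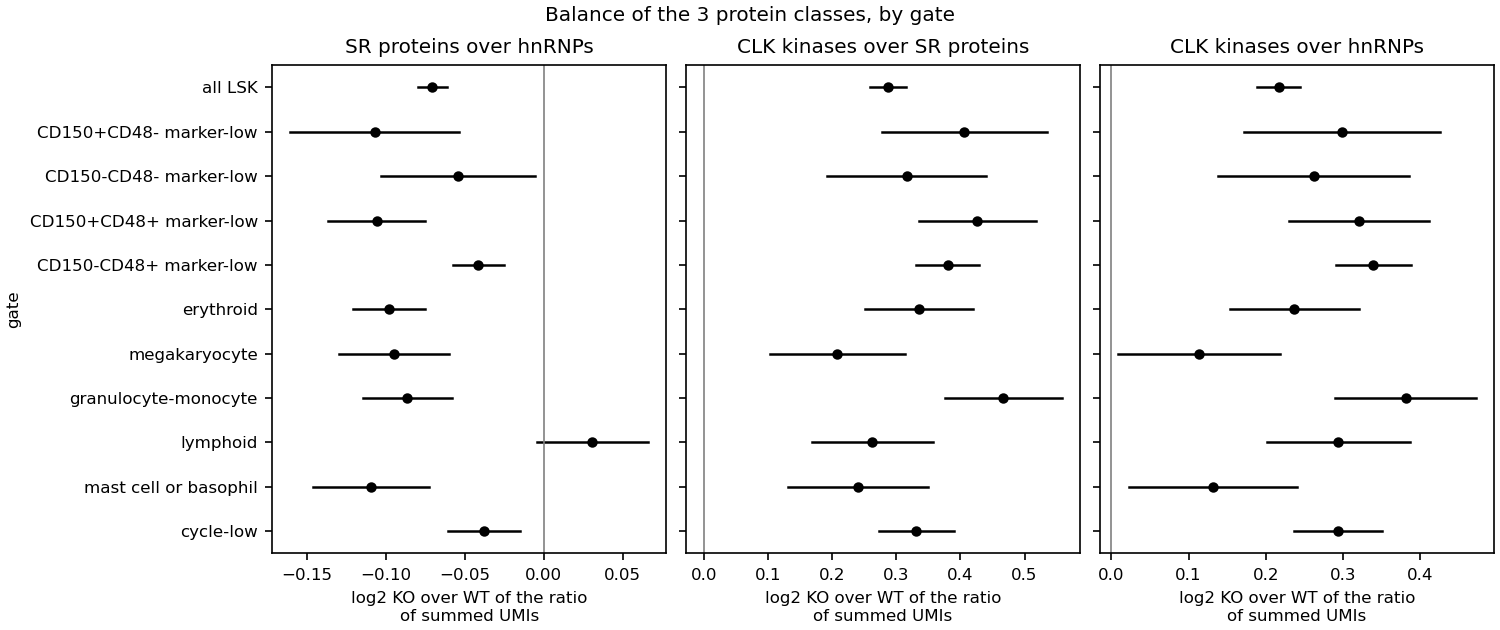
Log2 KO over WT of the ratio of summed UMIs between classes (SR proteins over hnRNPs, CLK kinases over SR proteins, CLK kinases over hnRNPs), one row per set of cells. Points are values and bars normal-theory 95% intervals on log counts (counting error only). The SR-to-hnRNP shift is below 0 in every row but the lymphoid one (0.03, interval -0.00 to 0.07), and the CLK-to-SR shift is above 0 in every row drawn; all CD150+CD48- cells (-0.00) and their upper CD201 range (-0.18) are not drawn.

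Cells were gated by their CD150 and CD48 antibody counts, a pair of SLAM receptors: CD150+CD48- is the gate in which long-term stem cells are usually sought. The gates held 492 WT and 244 KO cells (CD150+CD48-), 591 and 414 (CD150-CD48-), 898 and 531 (CD150+CD48+) and 3364 and 1487 (CD150-CD48+). Cuts were set within each library, and 5.56 to 8.78% of cells lay within 0.1 log10 units of one. The make-up of the first gate differed between libraries: 58 of 244 KO cells but 21 of 492 WT cells were high for erythroid markers (Gata1, Klf1 and others), whose sum was 2529 CPM in KO and 912 CPM in WT. Values are therefore also given for marker-low cells, those below the pooled 90th percentile for erythroid, megakaryocyte, granulocyte-monocyte, lymphoid and mast cell or basophil markers alike. These numbered 330 WT and 131 KO cells in CD150+CD48- and 2156 and 830 in CD150-CD48+.

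Within the WT library, Clk1, Srsf5 and Clk4 were highest in the CD150+CD48- gate. Srsf5 had 315 CPM in CD150+CD48-, 238 in CD150-CD48-, 215 in CD150+CD48+ and 219 in CD150-CD48+. Clk1 had 125, 95.8, 78.7 and 81.6 CPM in the same order, and Clk4 45.5, 35.4, 31.9 and 31.9 CPM. Relative to CD150-CD48+, the log2 ratio of the CD150+CD48- gate was 0.61 for Clk1, 0.52 for Srsf5, 0.51 for Clk4 and 0.35 for both Luc7l2 and Rbm39, and these 5 of 38 were at least 25% higher, where 23.0% of all genes were. At the other end stood Srsf3 (-0.27), Hnrnpd (-0.23), Srsf2 (-0.19) and Hnrnpa2b1 (-0.19), and 0 of 38 were at least 20% lower (11.9% of all genes). The median of the members was 0.05, near the 0.07 of all genes.

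In the KO library this order was present among marker-low cells and faint over all cells of the gates. Over all cells, the ratio of CD150+CD48- to CD150-CD48+ was 0.20 for Clk1, 0.06 for Srsf5 and 0.18 for Clk4, and no member passed the fold in either direction (16.2% of all genes were higher and 10.3% lower). Among marker-low cells it was 0.65 for Clk1 (0.79 in WT), 0.52 for Clk4 (0.59), 0.38 for Srsf5 (0.56) and 0.36 for Luc7l2 (0.45), and these 4 were at least 25% higher in both libraries, where 19.3% of all genes were. Srsf3 and Hnrnpd were at least 20% lower in both, with -0.54 and -0.40 in KO and -0.38 and -0.37 in WT, where 12.3% of all genes were. The plot of levels by surface gate shows all cells beside marker-low cells. For Srsf5 in CD150+CD48- these were 344 and 441 CPM in KO, but 315 and 327 CPM in WT.

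**Figure D3:**
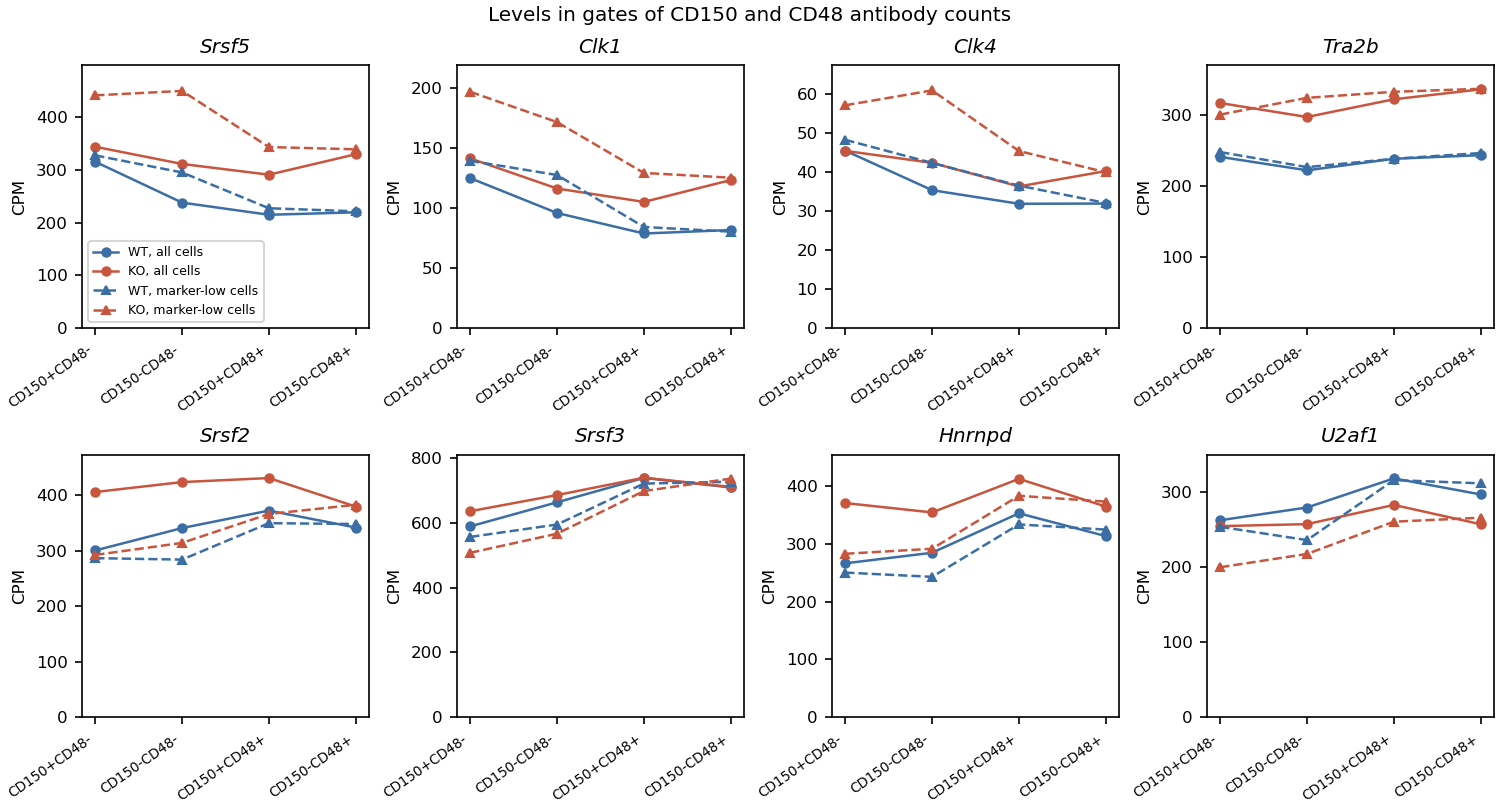
Levels (CPM, axes from 0) of 8 genes in the 4 gates of CD150 and CD48 antibody counts, in WT (blue) and KO (red), over all cells of a gate (circles, solid lines) and over its lineage marker-low cells (triangles, dashed lines); each point is 1 library, lines join gates only to guide the eye, and counting intervals are not drawn. Srsf5 in marker-low CD150+CD48- cells is at 327 CPM in WT against 441 in KO, whereas over all cells of that gate it is at 315 and 344 CPM.

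The difference between libraries was likewise read in each gate. In marker-low cells Srsf5 was at 327 CPM in WT against 441 in KO in CD150+CD48-, 295 and 449 in CD150-CD48-, 227 and 343 in CD150+CD48+, and 221 and 339 in CD150-CD48+. Clk1 was at 139 and 197 CPM, 127 and 171, 84.1 and 129, and 80.2 and 125 in that order. Tra2a was at 197 and 269 CPM, 192 and 236, 165 and 223, and 161 and 219. KO exceeded WT in each of the 4 gates for these 3 genes, and the same held for Tra2b, with 248 and 300 CPM, 226 and 324, 238 and 332, and 246 and 337.

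In these marker-low cells, 20 of 38 had an interval above 0 in each of the 4 gates (6.05% of all genes, not matched for level). At least 25% higher in marker-low CD150+CD48- cells were 5 of 38 (Srsf5, Tra2a, Clk1, Clk3 and Sf3b1; 10.9% of all genes) and 1 was at least 20% lower (U2af1; 3.81%). U2af1 had 254 CPM in WT against 200 in KO there, a ratio of -0.34 (-0.48 to -0.21). In marker-low CD150-CD48+ cells 7 of 38 were at least 25% higher (6.13% of all genes): Srsf5, Tra2a, Tra2b, Clk1, Luc7l2, Hnrnph1 and Ddx5. The marker-low CD150-CD48- and CD150+CD48+ cells had 6 each (11.1 and 12.0% of all genes), with Srsf5, Tra2b, Clk1, Hnrnph1 and Ddx5 in both. None was at least 20% lower in these 3 gates, where 0.757, 4.19 and 2.67% of all genes were.

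Over all cells of the gates another set of genes passed the fold in CD150+CD48-. There 8 of 38 were at least 25% higher in KO (19.8% of all genes): Srsf2, Srsf6, Tra2b, Srrm1, Luc7l3, Hnrnpa2b1, Hnrnpd and Hnrnpu. Srsf5, with 315 CPM in WT against 344 in KO, and Clk1, with 125 and 141 CPM, were not among them. In CD150-CD48- the number was 2 (Srsf5 and Tra2b; 5.37% of all genes), in CD150+CD48+ 3 (with Clk1 as well; 6.34%) and in CD150-CD48+ 6 (with Tra2a, Clk4 and Ddx5 as well; 5.27%). None was at least 20% lower in any of the 4 gates, where 12.1, 5.78, 5.03 and 0.718% of all genes were. Tra2b was the only member past the fold in all 4, with ratios of 0.39 to 0.46. The share of all genes past the fold in all 4 was not computed. In marker-low CD150+CD48- cells Tra2b was at 0.28, short of the fold.

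Some genes differed between libraries more in one gate than in the other. For Srsf5 the ratio was 0.43 in marker-low CD150+CD48- cells and 0.61 in marker-low CD150-CD48+ cells, a difference of 0.18 (0.08 to 0.29). For Srsf7 it was -0.28 and -0.10, for Srsf3 -0.13 and 0.02 and for Tra2b 0.28 and 0.45. In all, 8 of 38 had a difference with an interval above 0 (5.86% of all genes) and 0 below it (4.64%). For Clk1 the values were 0.50 and 0.64, and the interval of their difference included 0. Over all cells of the gates the differences went both ways: 8 of 38 had an interval above 0 (27.8% of all genes) and 14 below it (26.0%), and the Srsf5 ratio was 0.12 in CD150+CD48- and 0.59 in CD150-CD48+. Srsf2, for which the KO ratio was 0.43 in all CD150+CD48- cells and 0.15 in CD150-CD48+ cells, had 0.03 and 0.14 in their marker-low cells. Erythroid marker-high cells, of which the KO gate held more, carried high Srsf2 and low Srsf5 in both libraries, as the next comparison shows, and their part in the unrestricted gate values was not tested beyond the marker-low cells. Within all CD150+CD48- cells the U2af1 ratio was 0.23 in the upper CD201 range and -0.25 in the lower. The lower minus the upper was -0.48 (-0.65 to -0.30). U2af2 was at 0.07 and 0.17 in the same ranges. In marker-low CD150+CD48- cells U2af1 was at -0.34 and U2af2 at -0.05.

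Lineage gates were ranges of a marker sum, above the 90th percentile of both libraries pooled, and 3.62 to 8.31% of cells lay between 20% below and 25% above a cut. They held 326 WT and 379 KO cells (erythroid), 451 and 199 (megakaryocyte), 406 and 263 (granulocyte-monocyte), 503 and 260 (lymphoid) and 342 and 227 (mast cell or basophil), beside 3317 and 1348 marker-low cells. Erythroid marker-high cells showed the widest contrast with marker-low cells. Srsf2 was higher there in both libraries, with ratios of 0.34 in WT and 0.43 in KO, and was the only member at least 25% higher in both (21.2% of all genes). Lower by at least 20% in both were 6 of 38, where 31.0% of all genes were: Clk1 (-0.58 in WT and -0.72 in KO), Ddx5 (-0.61 and -0.69), Clk4 (-0.59 and -0.52), Srsf5 (-0.39 and -0.56), Tra2a (-0.38 and -0.43) and Hnrnph1 (-0.37 and -0.39). The medians of the 3 classes in these cells were -0.49 and -0.41 for CLK kinases, 0.04 and 0.11 for SR proteins and 0.08 and 0.13 for hnRNPs.

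The other lineage gates differed less from marker-low cells. In granulocyte-monocyte marker-high cells Clk1 was lower in both libraries (-0.38 and -0.35; 12.5% of all genes were lower by the fold), and Srsf5 was at -0.31 and -0.38. In lymphoid marker-high cells U2af1 (-0.52 in WT and -0.35 in KO) and Hnrnpd (-0.41 and -0.43) were lower in both, where 12.7% of all genes were, and Clk1 was at 0.33 and 0.30. No member was at least 25% higher in both libraries in the granulocyte-monocyte or the lymphoid gate (5.01 and 6.04% of all genes). No member passed the fold in both libraries in megakaryocyte or in mast cell or basophil marker-high cells, where 4.28 and 4.98% of all genes were higher and 4.35 and 5.26% lower. Over the 5 gates, 9 of 38 members passed the fold in some gate in both libraries, against 62.0% of 5284 genes. Each gene named for these gates had the same sign in both libraries, as the heat map shows.

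**Figure D4:**
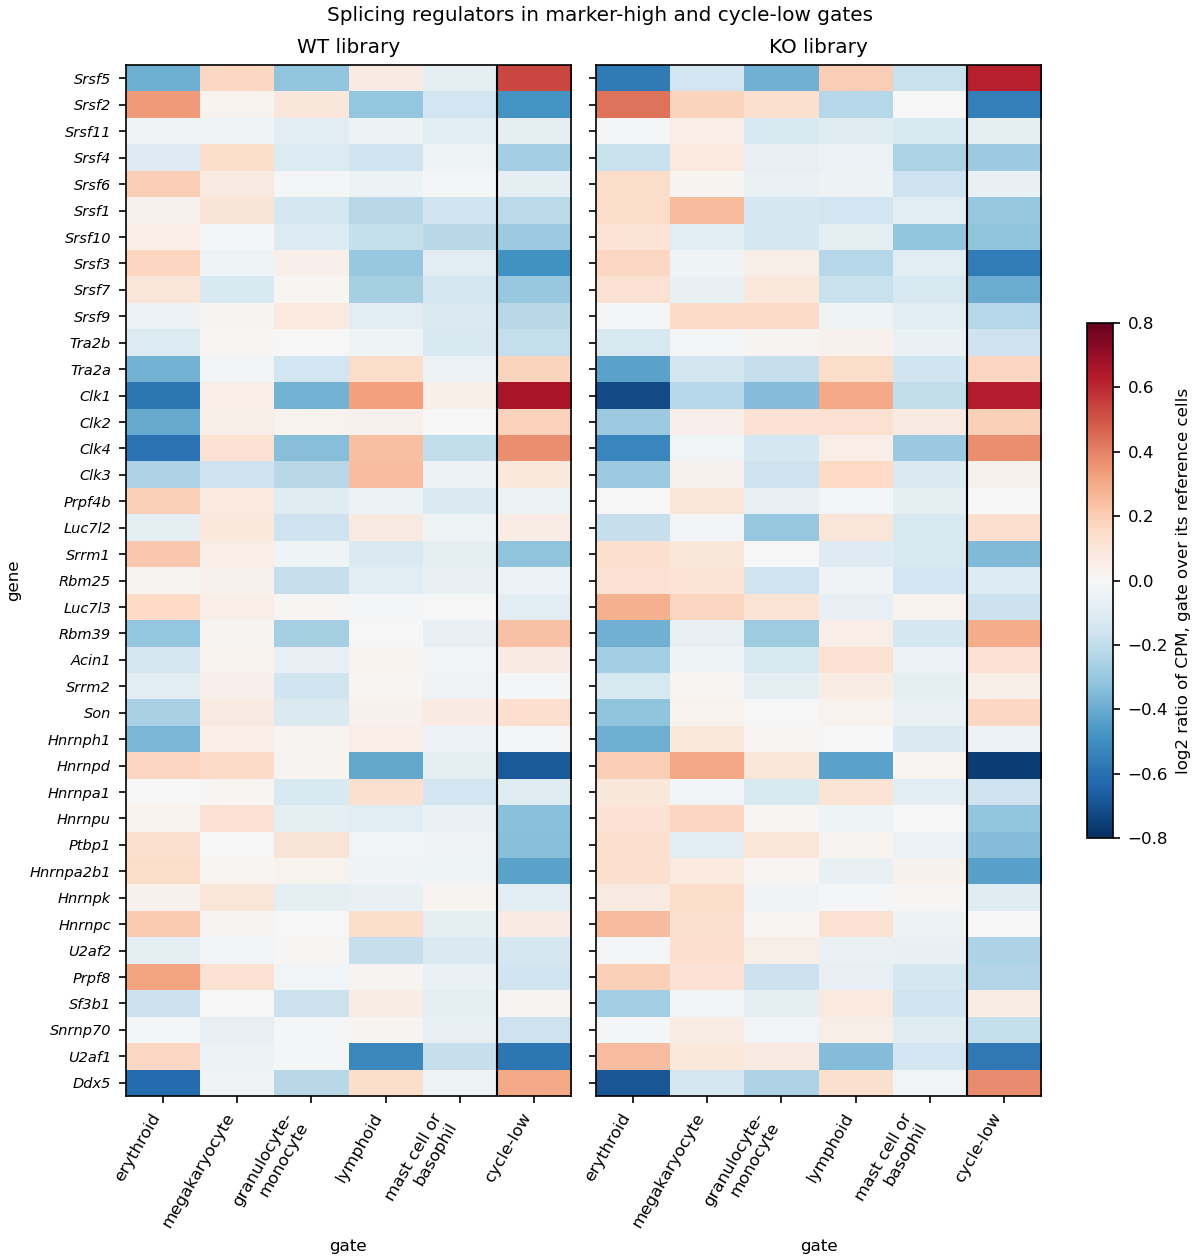
Log2 ratio of CPM for each of the 39 genes (rows, grouped by role) in 5 lineage marker-high gates relative to marker-low cells, and in cycle-low cells relative to all other cells (last column), in the WT library (left) and the KO library (right). Red is higher and blue lower than the reference cells; the colour scale ends at 0.8 in both directions. Clk1, Clk4, Srsf5 and Ddx5 are blue in the erythroid column (Clk1 -0.58 and -0.72) and red in the cycle-low column (Clk1 0.65 and 0.63), and Srsf2 has the opposite colours.

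Srsf5, Tra2a, Tra2b and Clk1 were higher in the KO library in each of these sets of cells. For Srsf5 the levels in WT and KO were 179 and 241 CPM in erythroid, 263 and 320 in megakaryocyte, 189 and 273 in granulocyte-monocyte, 245 and 408 in lymphoid, 222 and 314 in mast cell or basophil marker-high cells, and 235 and 356 in marker-low cells. The lymphoid ratio of 0.73 (0.66 to 0.81) exceeded the erythroid ratio of 0.43 (0.36 to 0.49) by 0.31 (0.21 to 0.41). For Clk1 they were 59.0 and 82.1 CPM, 91.5 and 115, 67.9 and 106, 111 and 166, 90.9 and 118, and 88.1 and 135. The WT and KO levels of Clk1 overlapped across sets of cells, since lymphoid WT cells (111 CPM) stood above erythroid and granulocyte-monocyte KO cells. The number at least 25% higher in KO was 5 of 38 in erythroid (5.58% of all genes), 6 in megakaryocyte (10.7%), 8 in granulocyte-monocyte (9.18%), 7 in lymphoid (8.67%), 4 in mast cell or basophil (8.0%) and 8 in marker-low cells (6.43%). None was at least 20% lower in any of the 6, where 4.96, 3.94, 1.48, 1.59, 3.52 and 0.699% of all genes were, in the same order. All 4 CLK kinases were past the fold in granulocyte-monocyte marker-high cells, with a class median of 0.47. Clk2, below the minimum of 20 CPM, is not among the 8 counted there. An interval above 0 in all 6 sets was found for 20 of 38 (7.3% of all genes, not matched for level), among them Ddx5 (0.29 to 0.40), Hnrnph1 (0.27 to 0.36), Luc7l2 (0.19 to 0.36) and Hnrnpa1 (0.16 to 0.28). U2af1 was below 0 in all 6 (in 5 with its whole interval), from -0.24 in marker-low to -0.07 in lymphoid cells.

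The share of cycle-low cells also differed between libraries: 36.4% of WT and 28.4% of KO cells were below the pooled median for both S and G2 and M phase genes. This split is relative to the pooled cells, so the other cells are not all called as in cycle. Against all other cells of the same library, Clk1 (0.65 in WT and 0.63 in KO), Srsf5 (0.53 and 0.62) and Clk4 (0.37 and 0.37) were higher in cycle-low cells of both libraries, where 16.2% of all genes were. Lower in both were 7 of 38, where 23.7% of all genes were: Hnrnpd (-0.67 and -0.76), U2af1 (-0.58 and -0.57), Srsf3 (-0.49 and -0.56), Srsf2 (-0.48 and -0.55), Hnrnpa2b1, Ptbp1 and Srrm1. Within the SR family, then, Srsf5 was higher and Srsf2 and Srsf3 lower in cycle-low cells. KO over WT within cycle-low cells was 0.60 for Srsf5 and 0.52 for Clk1, and within the other cells 0.51 and 0.54. In cycle-low cells 6 of 38 were at least 25% higher in KO (7.5% of all genes) and 0 at least 20% lower (0.796%).

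Other genes of the splicing machinery, 118 of 119 listed symbols being found and 114 reaching 20 CPM, were read in the same way. Of these 114, 92 had a ratio above 0 (64.5% of all genes), 4 were at least 25% higher in KO (5.54%) and 0 at least 20% lower (1.72%). Their median was 0.13, against 0.06 for all genes. The counts above 0 and medians below stand beside the same 64.5% and 0.06. Further hnRNPs and RNA-binding regulators had 28 of 29 above 0 and a median of 0.18, led by Hnrnpll (21.9 CPM in WT against 28.3 in KO, 0.37) and Hnrnpul1 (60.5 and 77.7 CPM, 0.36). Other SR-related genes had 14 of 17 above 0 and a median of 0.14, led by Nktr (0.29), a cyclophilin with an SR domain. Other SR protein kinases and their import receptor had 3 of 4 measured genes above 0 and a median of 0.21. Dyrk1a was at 21.2 and 26.9 CPM (0.34) and Srpk1, the cytoplasmic SR protein kinase, at 106 and 118 CPM (0.16). The spliceosomal helicases (8 of 9 above 0, median 0.15) were led by Dhx38 (0.33), and the genes of the tri-snRNP and catalytic complex had 13 of 14 above 0, median 0.15. Exon junction and nonsense-mediated decay genes, which clear poison-exon transcripts, had 11 of 12 above 0 and a median of 0.11, with Smg1 at 0.31 and Upf1 at 0.29. The small ring proteins of the snRNPs differed: 7 of 18 Sm and LSm genes were above 0, the median was -0.02, and Lsm4 was at 255 and 229 CPM (-0.16). Genes of branch point recognition had 8 of 11 above 0 and a median of 0.02, with Sf1 at 0.24.

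Other properties of the cells also differed between the 2 libraries. Immediate early genes, which answer to dissociation and other stress within minutes, summed to 906 CPM in WT against 1701 in KO, with 10 of 11 measured genes at least 25% higher and Fos at 36.9 and 134 CPM. G2 and M phase genes summed to 4713 and 5470 CPM, and the nuclear-retained RNAs to 6470 and 6881 CPM, with Neat1, the architectural RNA of paraspeckles, at 72.1 and 133 CPM (0.88). Median mitochondrial shares were 4.02 and 4.19%. In the 3194 WT and 816 KO cells below the pooled median of immediate early UMIs, the ratio was 0.29 for Srsf5, 0.25 for Clk1, 0.25 for Tra2a, 0.09 for Ddx5 and 0.08 for Clk4, all smaller than over all cells, and the 3 members past the fold there were Tra2b, Luc7l3 and Hnrnpd (12.5% of all genes). These cells were of unlike make-up, since 285 of the 816 KO cells but 281 of the 3194 WT cells were erythroid marker-high. In cells that were marker-low as well (2008 WT and 310 KO) the ratio was 0.43 for Srsf5, 0.44 for Clk1, 0.37 for Tra2a, 0.32 for Tra2b and 0.28 for Ddx5. Among cells with 15000 to 40000 UMIs in both libraries it was 0.75 for Srsf5 and 0.76 for Clk1, -0.01 for Hnrnpa2b1 and -0.03 for Ptbp1. This window held 3668 WT and 1487 KO cells and took unlike parts of the libraries, whose medians were 22734 and 34187.5 UMIs. In granulocyte-monocyte marker-high cells, for instance, the median was 32101 UMIs in WT, inside the window, and 45337 in KO, above it. The lineage and cycle make-up of the window was not computed, so these are not values matched for depth alone. Levels in bulk sums of a gate cannot tell more transcripts per cell from more cells with the transcript, and the part of immediate early genes, cycle and depth in each ratio was not tested beyond these values.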

How the data were processed

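The authors deposited unfiltered matrices of raw UMI counts per gene and antibody tag, made with Cell Ranger 4 per the file headers, and with version 4.0.6 and genome build mm10 per the submitters' processing notes. These notes also name Seurat and DESeq without a version or step. Strand use in counting is not given in the sources used here. The 3′ tags are 1 per molecule, so no length scaling was made. Multi-mapping reads of gene copies could not be checked.

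A barcode counted as a cell if it reached a UMI minimum (10% of the 99th percentile among the 6000 fullest barcodes, that is 8178 in WT and 9992 in KO), showed 500 or more genes and had no more than 10% mitochondrial UMIs. No doublets were removed. UMIs were summed over the cells of a library or gate and given as CPM, with exact conditional binomial 95% intervals of 2 Poisson counts (counting error only). Genes with at least 20 CPM on average counted as measured. Surface gates came from Otsu cuts on log10 antibody counts within each library, and lineage gates from the pooled 90th percentile of 5 marker sums per 10000 UMIs, the highest rank deciding where several were passed. The interval code was tested on simulated data.

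With 1 library per genotype (4 samples in 4 groups, the RNA and antibody parts), no test was made. The members and lists were chosen with earlier results of these data known. All 39 members could be named: in full those past the fold and the highest and lowest of each role, per gate comparison the 3 highest and 3 lowest in WT, and of each other list the 1 or 2 genes with the largest absolute ratio. Neighbours of these in value, Clk4 and Luc7l2 among them, and third-ranked values were added after their values were seen. Of the listed pathway symbols 118 of 119 were found. Alternatives for cell limits, scaling, free RNA, weighting, cycle, immediate early genes, gates and depth were run. Python 3.11.15, numpy 2.4.6, pandas 2.3.3, scipy 1.17.1 and matplotlib 3.10.9 were used. The deposited list of antibody tag sequences went unused.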

Additional observations from a re-analysis of the deposited data

Results flagged for a closer look

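Srrm2, a scaffold of nuclear speckles, had opposite directions in 2 surface gates. Its KO over WT ratio was 0.0459 (0.0215 to 0.0703) in CD150-CD48+ cells and -0.05 (-0.09 to -0.01) in CD150+CD48+ cells, and the intervals cover counting error only. With 1 library per genotype the difference was not tested. In the marker-low cells of the same gates the ratios were 0.02 and 0.04.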

How the results depend on the processing

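No paired analysis was possible because each genotype was 1 library. The 9 summary results and the ratios of the 39 genes were recomputed under the alternatives; cells with 15000 to 40000 UMIs, the removal of the 5% of cells with the most UMIs, marker-low cells and marker-low cells low in immediate early genes were chosen after seeing the data. Of 89 recomputed summary values 65 stayed within the main interval or within 1.5 times the main count, 22 moved and 2 reversed. The number of members at least 25% higher in KO, 4 over all cells, was 7 with WT lineage weights (4.91% of all genes), 7 at 15000 to 40000 UMIs (9.65%) and 8 in marker-low cells (6.41%), and the number at least 20% lower, 0 over all cells, was 1 (U2af1; 3.23%) at 15000 to 40000 UMIs. The SR protein median (0.15) became 0.0918 in cycle-low cells, 0.084 with median-of-ratios scaling, 0.0429 at 15000 to 40000 UMIs and 0.11 in marker-low cells. The hnRNP median (0.18) became 0.13, 0.11, 0.0788 and 0.15 in the same order, 0.22 in cells low in immediate early genes and 0.16 with WT weights. The CLK median (0.28) became 0.19 in cells low in immediate early genes and 0.40 at 15000 to 40000 UMIs. The SR-to-hnRNP shift (-0.07) became -0.0378 in cycle-low cells, -0.0958 in cells low in immediate early genes, -0.0959 in those of them that were marker-low, -0.0306 at 15000 to 40000 UMIs and -0.0586 in marker-low cells. The KO median of the members in CD150+CD48- over CD150-CD48+ (0.07) turned to -0.0093 with median-of-ratios scaling and to -0.0069 in marker-low cells. The number past the fold in a lineage gate in both libraries was 5 instead of 9 with median-of-ratios scaling. The share of all genes was not computed for that scaling, so this fall is not read as one of the members. Of 468 recomputed ratios of single genes, 5 changed sign where the main interval excluded 0: Srrm2 was at -0.0092 in cells low in immediate early genes and -0.0444 with median-of-ratios scaling, and at 15000 to 40000 UMIs Srsf10 was at -0.0238, Hnrnpa2b1 at -0.0148 and Ptbp1 at -0.0257. Srsf3 and Snrnp70, whose main intervals included 0, were below 0 in several alternatives and lowest there, at -0.16 and -0.0656. Srsf5, Clk1 and Tra2b were past the fold in 11 of 12 alternatives each and Tra2a in 10. The exceptions were cells low in immediate early genes for Srsf5, Clk1 and Tra2a, the marker-low ones among them for Tra2b (0.32, short of the fold), and median-of-ratios scaling for Tra2a (0.30). The cause of these moves was not tested. Depth limits Clk2 and Clk3 most, and counting intervals hold no spread between embryos or libraries.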
